A study of Mus musculus with 4 samples.

Results

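The genes described here encode the small-subunit (SSU) processome, the box C/D snoRNP and the factors that mature the 40S ribosomal subunit. A list of 44 gene symbols in 7 roles defined them, and they were compared between tumor repopulating cells (TRCs) and parental cells of B16F1, a mouse melanoma cell line. Of the 44 genes, 43 were found among the 39179 genes in the count files, and all 43 were among the 11483 genes tested. The identifier of *Riok2* in the annotation used was not among those in the files, and *Riok2* was not analysed here. The members lie on 18 chromosomes.

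RNA-seq was run on 4 libraries, 2 from parental B16F1 cells and 2 from TRCs, and both groups carry the replicate numbers 1 and 3. TRCs are the cells that grow from single B16F1 cells into spheroids inside a soft 3D fibrin gel, and the parental control cells were grown without gel selection. The labels name no genetic change or drug that separates the groups, and gel culture, spheroid growth and selection of a subpopulation with it cannot be told apart in this design. All libraries come from 1 cell line, and nothing in the labels says that the replicates were separate cultures, so p-values measure only the spread between these samples.

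Ribosomes are built in the nucleolus from a long precursor rRNA. The SSU processome assembles on the 5′ part of that precursor while it is transcribed, together with the U3 snoRNA, folds it, and directs the cleavages that release the 18S rRNA precursor. The resulting pre-40S particle is then exported to the cytoplasm, where late factors complete the last cleavage. The box C/D snoRNPs guide 2′-O-methylation of rRNA, and U3 is a box C/D snoRNP that acts in cleavage. Growing cells and many tumors carry high levels of these factors.

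Between 35948295 and 43511554 counts fell on genes per library. The values are CPM (counts scaled to the library size and with TMM factors of 0.957 to 1.04). The floor taken as detectable, 3 counts, corresponds to 0.0689 to 0.0835 CPM without the TMM factors, a floor for counting error alone. Multiply mapped (not unique) alignments took 15.2% and 17.1% in the parental libraries and 18.3% and 25.2% in TRC replicates 1 and 3, and they were assigned to no gene. The 7 melanocyte genes examined were detected in every library, with summed levels of 18920 and 15710 CPM in parental and 23970 and 26670 CPM in TRC libraries. All 7 had log2 fold changes above 0, with a median of 0.41, and *Dct*, a melanin synthesis enzyme, was called higher, with 5694 and 4334 CPM in parental and 11150 and 10030 CPM in TRC libraries (log2 fold change 1.08, SE 0.213, FDR 0.000307). Of 27 markers of leukocytes, fibroblasts, endothelium, epithelium and erythroid cells, 11 had no count in any library, among them *Ptprc*, *Cdh5* and *Hba-a1*. In the fibroblast list *Col1a2* was called lower, with 6.70 and 7.79 CPM in parental and 1.52 and 1.01 CPM in TRC libraries. The 27 markers together summed to 17.1 and 12.5 CPM in parental and 9.48 and 5.87 CPM in TRC libraries, and the part of these marker differences in the results below was not tested.

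The SSU factors, a list chosen with earlier results of these data known, were lower in TRCs as a group. By edgeR's exact test with a Benjamini-Hochberg FDR under 0.05 over all genes tested, 32 of the 43 were called lower and 0 higher, where 7.05% of all genes tested were called lower and 8.81% higher. At an unadjusted p under 0.05, 37 members were lower and 0 higher, where 3220 of the 11483 genes passed in either direction. The quasi-likelihood test called 30 lower and 0 higher, where 4.24% of all genes were called lower. DESeq2's Wald test called 33 lower and 0 higher, beside 8.24% of all genes called lower. The median log2 fold change, TRC over parental, was −0.84, which is 55.8% of the parental level, and the values ranged from −1.88 to 0.42, beside a median of 0.003 over all genes tested. At least a 2-fold decrease was called for 15 members, where 2.66% of all genes met that rule. For 40 of the 43, both TRC libraries lay below both parental libraries, as they did for 30.4% of all genes, and the groups overlapped in *Wdr36*, *Imp3* and *Utp20*.

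**Figure D1:**
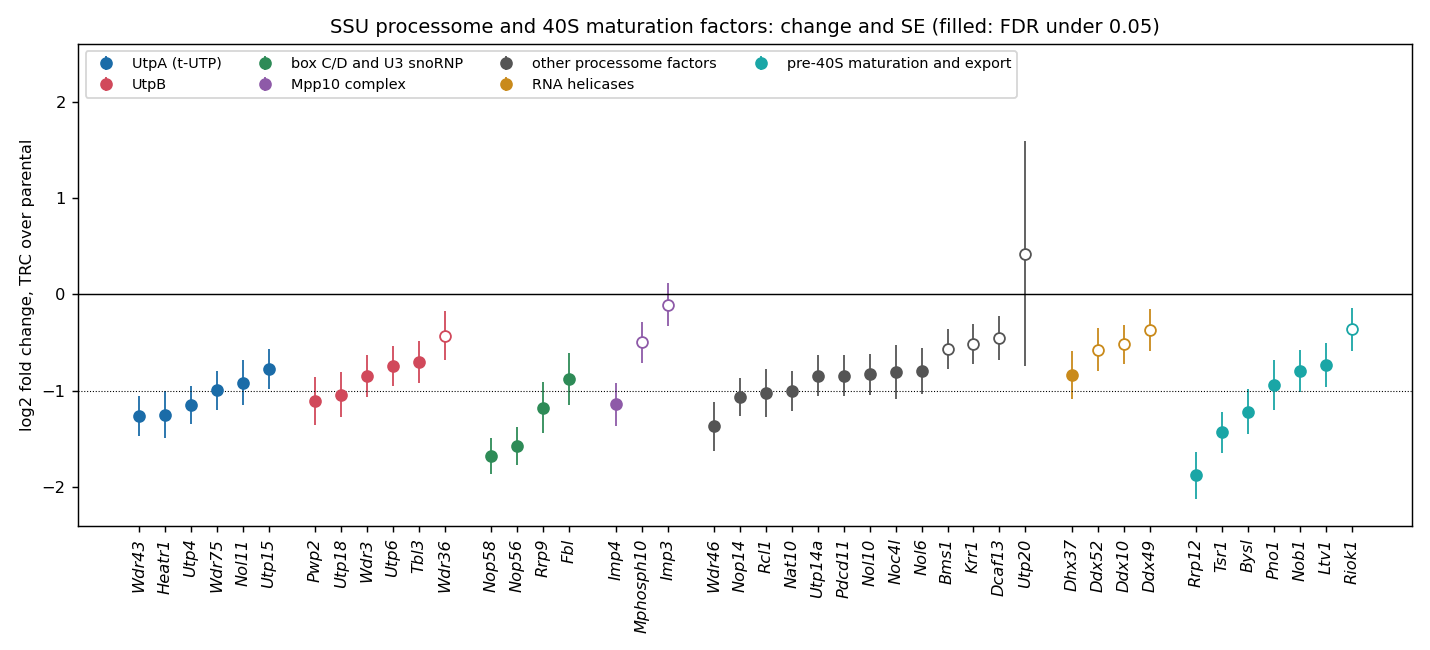
Log2 fold change of each SSU factor, TRC over parental, ordered by role and by size within a role. Bars are SE, filled points have FDR under 0.05, and the dotted line marks a 2-fold decrease. All 32 filled points lie below 0, and *Utp20*, at 0.42, is the only point above it.

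In each library the sum over the members showed the same order. The summed level of the 43 genes was 3802 and 4307 CPM in parental replicates 1 and 3 and 2229 and 2101 CPM in TRC replicates 1 and 3. Without *Utp20*, whose TRC libraries differed most, the sums were 3724 and 4179 CPM against 1992 and 2062 CPM, a TRC to parental ratio of 0.513. The groups did not overlap in either sum, and the exact two-sided permutation test gave p = 0.333, the smallest it can give for 2 against 2 libraries. In these bulk libraries, fewer cells that express the factors and less RNA per cell cannot be told apart.

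The parental libraries were not alike. Parental replicate 3 was higher than parental replicate 1 for 39 of the 43 members, by a median of 0.22 on the log2(CPM + 0.5) scale, where the median over all genes was 0.004. TRC replicate 3 was higher than TRC replicate 1 for 28 members, by a median of 0.056. The 4 differences between a TRC and a parental library had medians of −0.73 to −1.02 over the members. The number of calls moved when 1 library was left out. Without parental replicate 1, 33 members were called lower, where 7.44% of all genes were. It was 18 without parental replicate 3, where 3.16% of all genes were called lower. Without TRC replicate 1 it was 16, of which 15 were among the 32 and the other was *Utp20*, beside 2.34% of all genes, and without TRC replicate 3 it was 19, beside 2.36%. With the replicate number as a block in the quasi-likelihood test it was 22, where 2.68% of all genes were called lower.

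**Figure D2:**
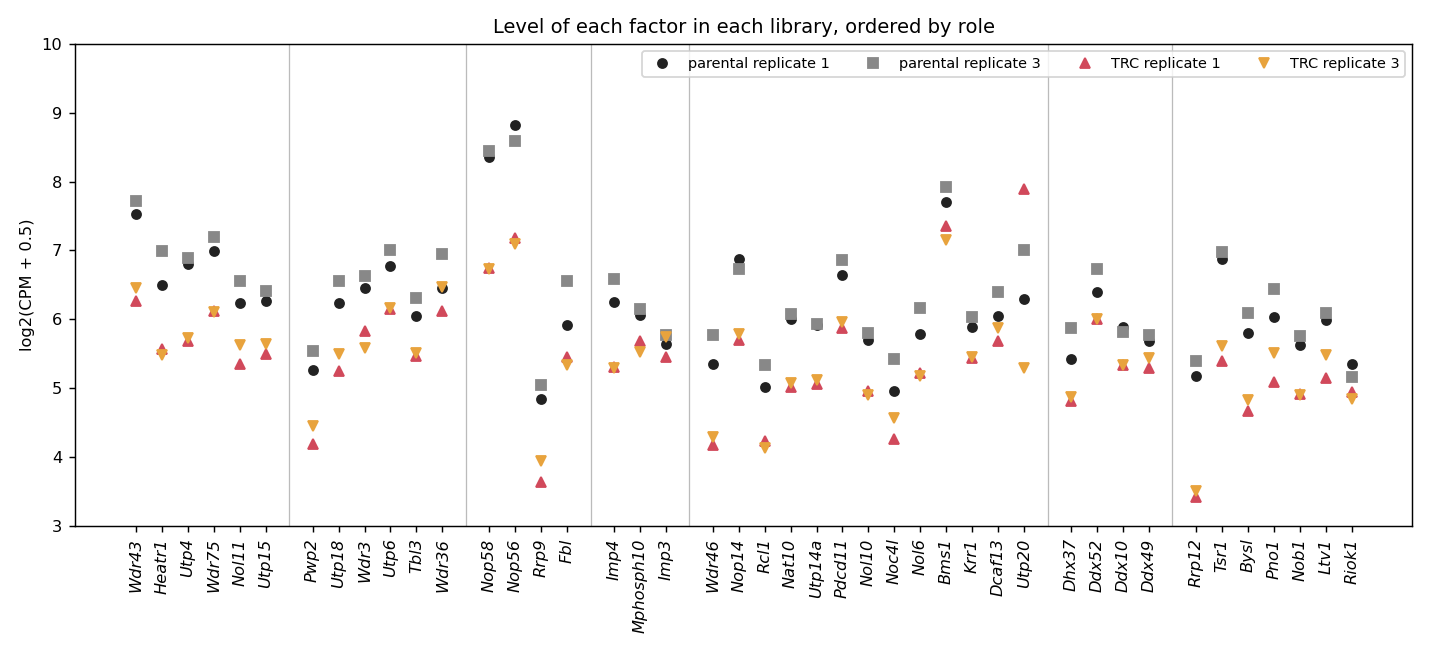
Level of each SSU factor in each library as log2(CPM + 0.5), ordered as in the plot of changes, with vertical lines between roles. Circles and squares are parental replicates 1 and 3, triangles TRC replicates 1 and 3. The triangles lie below the circle and square for 40 of the 43 genes.

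Promoter sequences are shown for the factors with a CACGTG motif (an E-box, the sequence bound by MYC and its relatives) that had the smallest FDR, to show where the motif lies, and for *Nop58*, the member with the smallest FDR of all. The sequences are from RefSeq, build GRCm38.p6, run from 250 bases before the annotated start to 50 after it, 5′ to 3′ on the gene's strand, and capitals mark the E-box.
Tsr1 (chr11:74897830-74898129, plus strand): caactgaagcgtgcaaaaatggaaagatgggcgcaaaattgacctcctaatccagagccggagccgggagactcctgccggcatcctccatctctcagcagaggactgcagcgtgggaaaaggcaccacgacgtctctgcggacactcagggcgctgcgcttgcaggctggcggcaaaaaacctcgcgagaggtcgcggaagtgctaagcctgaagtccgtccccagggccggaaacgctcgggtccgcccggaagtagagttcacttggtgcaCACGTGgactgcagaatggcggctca
Wdr43 (chr17:71615965-71616264, plus strand): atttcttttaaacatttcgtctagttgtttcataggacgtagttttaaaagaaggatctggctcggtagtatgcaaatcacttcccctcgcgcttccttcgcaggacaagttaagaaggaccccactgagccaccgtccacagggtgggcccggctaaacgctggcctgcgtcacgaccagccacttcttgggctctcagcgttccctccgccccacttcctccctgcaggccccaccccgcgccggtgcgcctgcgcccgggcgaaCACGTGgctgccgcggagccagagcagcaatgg
Wdr46 (chr17:33940473-33940772, plus strand): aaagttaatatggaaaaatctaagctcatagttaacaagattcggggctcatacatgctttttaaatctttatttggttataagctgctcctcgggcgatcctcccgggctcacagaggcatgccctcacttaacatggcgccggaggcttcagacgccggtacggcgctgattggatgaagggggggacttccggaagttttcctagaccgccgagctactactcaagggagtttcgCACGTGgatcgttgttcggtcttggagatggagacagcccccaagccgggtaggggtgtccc
Utp4 (chr8:106893390-106893689, plus strand): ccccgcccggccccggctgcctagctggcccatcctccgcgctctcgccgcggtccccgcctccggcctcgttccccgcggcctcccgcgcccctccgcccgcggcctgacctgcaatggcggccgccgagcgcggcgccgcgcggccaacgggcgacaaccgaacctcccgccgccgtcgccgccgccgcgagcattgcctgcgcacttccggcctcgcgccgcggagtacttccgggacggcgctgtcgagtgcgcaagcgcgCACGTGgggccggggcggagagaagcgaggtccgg
Nop58 (chr1:59684756-59685055, plus strand): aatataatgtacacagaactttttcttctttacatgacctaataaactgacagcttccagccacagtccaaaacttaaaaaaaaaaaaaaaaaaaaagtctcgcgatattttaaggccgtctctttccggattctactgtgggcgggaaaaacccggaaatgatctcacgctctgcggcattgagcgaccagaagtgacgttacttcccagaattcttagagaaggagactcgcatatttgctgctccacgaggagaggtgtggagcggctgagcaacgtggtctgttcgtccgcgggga
The E-box begins at base 25 after the start of *Tsr1*, base 18 of *Wdr43* and base 16 of *Utp4*, and 12 bases before the start of *Wdr46*. No CACGTG lies in the window of *Nop58*.

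Promoters in the table matched 36 of the 43 members, and *Tbl3*, *Utp6*, *Wdr36*, *Fbl*, *Nol6*, *Dcaf13* and *Rrp12* had no entry. CACGTG, which reads the same on both strands, occurred in 10 of the 36 windows (27.8%), beside 12.3% of 8915 genes tested with a promoter in the table and 8.09% of 27025 genes in the table. The 10 were *Utp4*, *Nol11*, *Wdr43*, *Utp18*, *Imp4*, *Utp20*, *Wdr46*, *Pno1*, *Ltv1* and *Tsr1*, of which 9 were called lower. Of all 36 members with a promoter, 27 were called lower, and *Utp20* had the motif among the 9 that were not called. The ETS-type motif CCGGAAGT, searched on both strands, was found in 10 windows (27.8%), beside 10% of the genes tested and 4.31% of the table. No E-box can lie within this motif. Of 24 promoters of 40S ribosomal protein genes, 1 held CACGTG and 4 held CCGGAAGT. A match describes letters in a window and no binding was measured here.

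UtpA, also called t-UTP, is the subcomplex that joins the nascent precursor rRNA first and is linked to its transcription. All 6 of its genes fell in TRCs, with log2 fold changes of −0.77 to −1.26. *Wdr43* had 184 and 209 CPM in parental replicates 1 and 3 and 76.7 and 87.3 CPM in TRC replicates 1 and 3. The TRC values were below both parental values, with a log2 fold change of −1.26 (SE 0.205, FDR 4.31e-06). *Utp4* had 111 and 118 CPM in parental and 51.1 and 52.4 CPM in TRC libraries. Its groups were far apart relative to the spread within them, at −1.14 (SE 0.197, FDR 1.32e-05). The largest FDR of the subcomplex was that of *Utp15*, with 76.0 and 84.4 CPM in parental and 44.4 and 49.5 CPM in TRC libraries. There was no overlap here either, and the log2 fold change was −0.77 (SE 0.211, FDR 0.00679). *Heatr1*, the large scaffold subunit, fell by 1.25, and *Wdr75* and *Nol11* by 0.99 and 0.91 on the log2 scale.

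UtpB is a second WD-repeat subcomplex of the processome that binds near the 5′ end of the precursor and the U3 snoRNA. Of its 6 genes, 5 were called lower, with a median of −0.79 over all 6. *Utp18* had 74.7 and 94.0 CPM in parental and 37.7 and 44.4 CPM in TRC libraries. The groups did not overlap, and the log2 fold change was −1.04 (SE 0.234, FDR 0.0003). *Pwp2* had 38.0 and 45.9 CPM in parental and 17.8 and 21.3 CPM in TRC libraries. Each TRC value was below each parental one, at −1.10 (SE 0.248, FDR 0.00066). The exception was *Wdr36*, with 87.5 and 123 CPM in parental and 68.8 and 87.7 CPM in TRC libraries. TRC replicate 3 lay just above parental replicate 1, so the groups overlapped, and the log2 fold change of −0.43 (SE 0.256) was not called (FDR 0.257). *Wdr3*, *Utp6* and *Tbl3* fell by 0.84, 0.74 and 0.70 on the log2 scale. Exons of a gene on the opposite strand cover 37.3% of the exon bases of *Tbl3* and 16.2% of those of *Wdr3*, and the strand setting of the counting is not given in the sources used here, so reads of the partner genes cannot be told apart there.

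The box C/D snoRNP had the largest median decrease of the 7 roles, −1.37. *Nop56* and *Nop58* are the paired core proteins that hold the snoRNA, *Fbl* (fibrillarin) is the methyltransferase, and *Rrp9* is the protein specific to U3. All 4 fell. *Nop58* had 326 and 349 CPM in parental and 107 and 106 CPM in TRC libraries. The spread within each group was small beside the difference of −1.67 (SE 0.187, FDR 6.49e-11). *Nop56* (ENSMUSG00000027405, plus strand of chromosome 2 from 130274430 to 130279313 in GRCm38) had 452 and 385 CPM in parental and 145 and 136 CPM in TRC libraries. It was lower in both TRC libraries by a log2 fold change of −1.57 (SE 0.196, FDR 3.27e-09). *Fbl* had 60.1 and 93.6 CPM in parental and 43.5 and 40.1 CPM in TRC libraries. Its parental libraries differed more than those of the other core proteins, and the log2 fold change was −0.88 (SE 0.271, FDR 0.0077). *Fbl* was not called without parental replicate 3, where its log2 fold change was −0.53. *Rrp9* fell by 1.17 on the log2 scale. The ratio of *Nop58* to *Nop56* CPM was 0.722 and 0.909 in parental and 0.733 and 0.774 in TRC libraries, with overlapping groups.

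The Mpp10 complex, which bridges U3 and the precursor rRNA had 1 of its 3 genes called lower, and the subunits differed. *Imp4* (ENSMUSG00000026127, plus strand of chromosome 1 from 34439851 to 34449356) had 76.0 and 95.7 CPM in parental and 39.2 and 38.7 CPM in TRC libraries. It was the called subunit, with a log2 fold change of −1.14 (SE 0.225, FDR 3.51e-05). *Mphosph10*, the scaffold subunit, had 66.6 and 70.3 CPM in parental and 51.2 and 45.7 CPM in TRC libraries. The groups did not overlap, yet the log2 fold change of −0.50 (SE 0.209) was not called (FDR 0.114). *Imp3* had 49.5 and 54.0 CPM in parental and 43.1 and 53.1 CPM in TRC libraries. The groups overlapped, and the log2 fold change was −0.11 (SE 0.227, FDR 0.822). The CPM ratio of *Imp4* to *Imp3* was 1.54 and 1.77 in parental and 0.909 and 0.729 in TRC libraries. Its groups did not overlap, with p = 0.333 in the exact permutation test, the smallest possible. This ratio was examined after the values of both genes were seen.

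**Figure D3:**
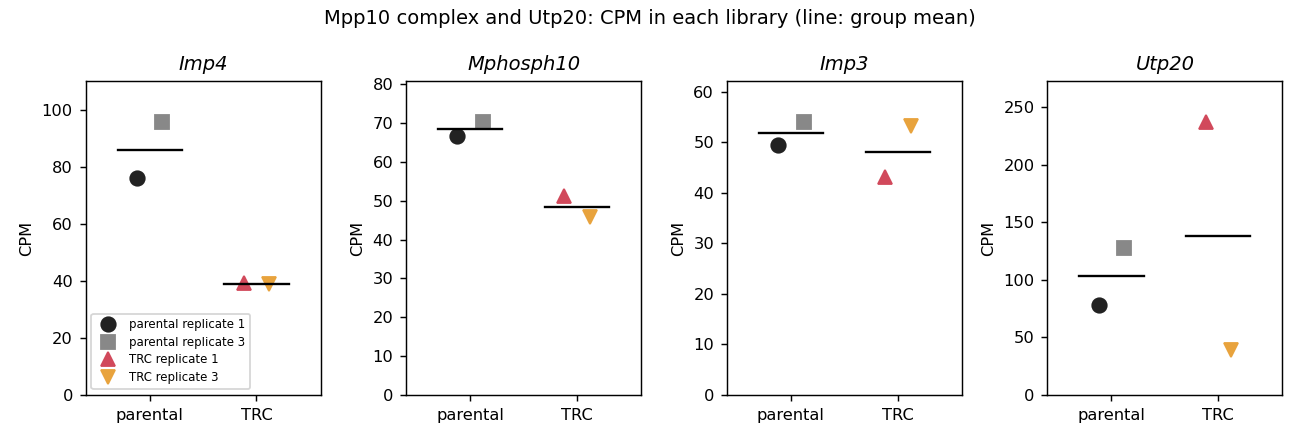
CPM of the Mpp10 complex genes and of *Utp20* in each of the 4 libraries, on axes that start at 0, with a line at each group's mean. *Imp4* falls in both TRC libraries, *Imp3* overlaps between groups, and *Utp20* differs between the TRC libraries, with 237 and 38.8 CPM.

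Among the 13 other processome factors, 9 were called lower, and the median over the 13 was −0.83. *Wdr46*, a scaffold WD-repeat protein, had 40.4 and 54.0 CPM in parental and 17.6 and 19.0 CPM in TRC libraries. Both TRC values lay below both parental values, with a log2 fold change of −1.37 (SE 0.254, FDR 1.11e-05). *Nop14* had 117 and 105 CPM in parental and 51.5 and 54.8 CPM in TRC libraries. The difference of −1.06 (SE 0.201, FDR 8.05e-05) exceeded the spread within either group. The other 7 genes called lower had log2 fold changes from −1.02 for *Rcl1*, an RNA cyclase-like factor, to −0.79 for *Nol6*. They include *Nat10*, the RNA cytidine acetyltransferase, at −0.999, and *Noc4l*, the Nop14 partner, at −0.80. *Utp14a*, *Pdcd11* and *Nol10* had −0.84, −0.84 and −0.83, and 11.5% of the exon bases of *Utp14a* lie opposite exons of another gene.

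Of the 4 other factors that were not called, 3 had lower values in both TRC libraries than in both parental libraries. This held for 30.4% of all genes tested. *Bms1*, the GTPase of the processome, had 208 and 242 CPM in parental and 163 and 141 CPM in TRC libraries. Its log2 fold change was −0.57 (SE 0.206, FDR 0.0754), and DESeq2's Wald test called it lower. *Krr1*, a KH-domain factor, had 58.8 and 64.7 CPM in parental and 42.9 and 43.5 CPM in TRC libraries. The log2 fold change was −0.52 (SE 0.209, FDR 0.101). *Dcaf13* had 65.5 and 83.7 CPM in parental and 51.1 and 58.0 CPM in TRC libraries. It did not pass either, at −0.45 (SE 0.232, FDR 0.18).

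*Utp20*, a large helical-repeat scaffold, was the 1 member with a log2 fold change above 0. It had 77.9 and 128 CPM in the parental libraries, while TRC replicate 1 had 237 CPM and TRC replicate 3 had 38.8 CPM. The TRC libraries lay on either side of both parental libraries, 6.11-fold apart, and the log2 fold change of 0.42 (SE 1.166) was not called (FDR 0.68). That difference between TRC libraries ranked 6 of 11483 genes by size. Without TRC replicate 1 the log2 fold change was −1.42 and *Utp20* was called lower, and without TRC replicate 3 it was 1.200 and called higher.

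The 4 RNA helicases, which remodel RNA in the particle, had 1 of 4 called lower. All 4 had both TRC libraries below both parental libraries, as did 30.4% of all genes tested. *Dhx37*, which acts on U3, had 42.3 and 58.3 CPM in parental and 27.6 and 28.8 CPM in TRC libraries. It fell by 0.84 on the log2 scale (SE 0.253, FDR 0.0114). *Ddx52* had 83.6 and 105 CPM in parental and 63.4 and 63.7 CPM in TRC libraries. The log2 fold change was −0.57 (SE 0.220, FDR 0.0698), and it was called lower without parental replicate 1. *Ddx10* had 58.7 and 56.0 CPM in parental and 40.01 and 40.02 CPM in TRC libraries. The libraries of each group were close to each other, and the log2 fold change of −0.52 (SE 0.206) was not called (FDR 0.101). *Ddx49* had 51.1 and 54.4 CPM in parental and 38.7 and 42.9 CPM in TRC libraries. Its log2 fold change was −0.37 (SE 0.214, FDR 0.287), and 29.8% of its exon bases lie opposite exons of *Homer3*.

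The factors of pre-40S maturation and export followed, with 6 of the 7 tested called lower and a median of −0.94. *Rrp12* (ENSMUSG00000035049, minus strand of chromosome 19 from 41862851 to 41896173), which acts in export of the pre-40S particle, had the largest decrease of all members, with 35.6 and 41.6 CPM in parental and 10.18 and 10.82 CPM in TRC libraries. Its TRC level was 27.2% of parental, a log2 fold change of −1.88 (SE 0.245, FDR 5.97e-09), which ranked 43 of 11483 genes from the most negative. *Tsr1*, the GTPase-like factor that occupies the subunit interface, had 117 and 125 CPM in parental and 41.3 and 48.2 CPM in TRC libraries. It fell by 1.43 on the log2 scale (SE 0.209, FDR 3.95e-08), with 32.3% of its exon bases opposite exons of *Srr*. *Bysl* (bystin), a factor needed for export of the particle, fell by 1.22, and *Pno1*, the partner of the late endonuclease, and *Nob1*, that endonuclease, fell by 0.94 and 0.79. *Ltv1*, an export adaptor, fell by 0.73. *Riok1*, an atypical kinase of the last cytoplasmic steps, had 40.1 and 35.2 CPM in parental and 30.3 and 28.2 CPM in TRC libraries. The groups did not overlap, and the log2 fold change of −0.36 (SE 0.226) was not called (FDR 0.345).

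Levels between genes were compared as CPM per kb of the principal annotated transcript. In parental cells the members ran from 8.89 CPM per kb for *Rrp12* to 223 for *Nop56*, a 25.1-fold range, with *Nop58* next at 197 and a median of 24.0. In TRCs the range was from 2.42 to 75.01 CPM per kb with *Rrp12* lowest and *Nop56* and *Nop58* highest again, and the median was 14.1. The annotated transcript used for *Imp4* has 5836 bases, so its level per kb is lower than its CPM would give for a shorter transcript. Across the 43 genes the log2 fold change had a Spearman correlation of −0.12 with log2 parental CPM per kb and 0.064 with transcript length. These are descriptions over genes of the same libraries.

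**Figure D4:**
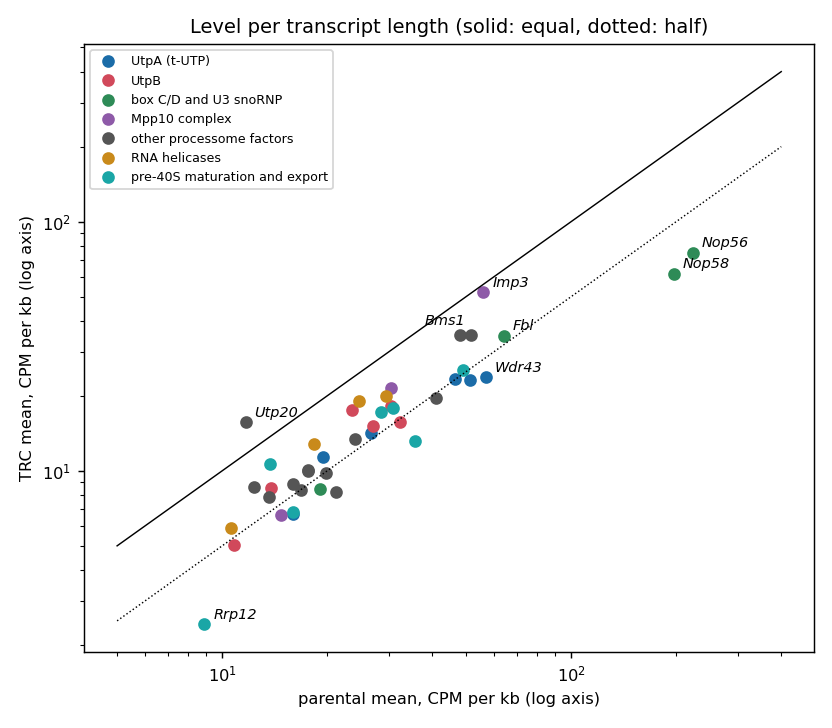
Mean level in TRCs against mean level in parental cells for the 43 SSU factors, both as CPM per kb on log axes and colored by role. The solid line marks equal levels and the dotted line a 2-fold decrease, and *Rrp12*, *Nop56* and *Nop58* are among the genes below the dotted line.

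Some snoRNA genes lie within protein-coding host genes on the same strand, and 4 members host them, *Wdr43*, *Nop56*, *Nop58* and *Tsr1*. This grouping was made after the values were seen. The 4 hosts had a median log2 fold change of −1.50, with 4 called lower, and the 39 other members had a median of −0.84, with 28 called. Other protein-coding snoRNA hosts, 212 genes tested, had 29 called lower and 6 higher and a median of −0.099. Of all genes tested, 7.05% were called lower and 8.81% higher. The 182 other hosts that are not ribosomal protein genes held the same 29 and 6 calls, with a median of −0.161. Of the snoRNA genes in *Nop56*, 4 overlap its exons on the same strand, over 8% of the exon bases.

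The next lists are other genes of the pathway and its products. Of 26 other SSU genes, 9 were called lower and 0 higher by the exact test, where 7.05% of all genes were called lower. Their median was −0.47. An unadjusted p under 0.05 was found for 12 lower and 0 higher, and for 3220 of the 11483 genes in either direction. The quasi-likelihood test called 6 lower and DESeq2 10, with 0 higher, where 4.24% and 8.24% of all genes were called lower. With the replicate block the count was 2, where 2.68% of all genes tested were called lower. It was also below 9 in every fit that left out 1 library. *Nolc1*, a nucleolar chaperone of snoRNPs, had 181 and 221 CPM in parental and 72.3 and 67.5 CPM in TRC libraries, a log2 fold change of −1.52 (SE 0.211, FDR 1.94e-08). *Aatf* had 57.9 and 60.0 CPM against 25.4 and 23.9 CPM, at −1.26 (SE 0.213, FDR 4.57e-06). *Tsr2* had 21.4 and 23.9 CPM against 8.85 and 12.4 CPM, at −1.09 (SE 0.292, FDR 0.0109). In these 3 genes both TRC libraries lay below both parental libraries, as in 30.4% of all genes tested. *Utp3*, *Fcf1*, *Ddx47* and *Riok3* had log2 fold changes of −0.087, −0.18, −0.18 and 0.020 and were not called.

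The 32 genes of 40S ribosomal proteins, the components that the processome and its partners assemble, did not follow the members. By edgeR's exact test 0 of 32 were called in either direction, with 0 at an unadjusted p under 0.05 and 0 called by the quasi-likelihood test or DESeq2. Their log2 fold changes ran from −0.41 to 0.48 with a median of 0.003. The 3 with the smallest FDR were *Fau*, *Rps2* and *Rps27a*, at 0.48 (FDR 0.222), −0.41 (FDR 0.299) and −0.28 (FDR 0.469). The summed level of the 32 genes was 16310 and 18600 CPM in parental and 15600 and 18470 CPM in TRC libraries, with overlapping groups. The SSU factors without *Utp20* amounted to 22.8 and 22.5 CPM per 100 CPM of these genes in parental libraries and 12.8 and 11.2 in TRC libraries. The groups did not overlap, with p = 0.333 in the exact permutation test, the smallest it can give. Alignments that were not unique were left out of the counts, and ribosomal protein genes have many processed pseudogenes, so their level is undercounted by an unknown amount.

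**Figure D5:**
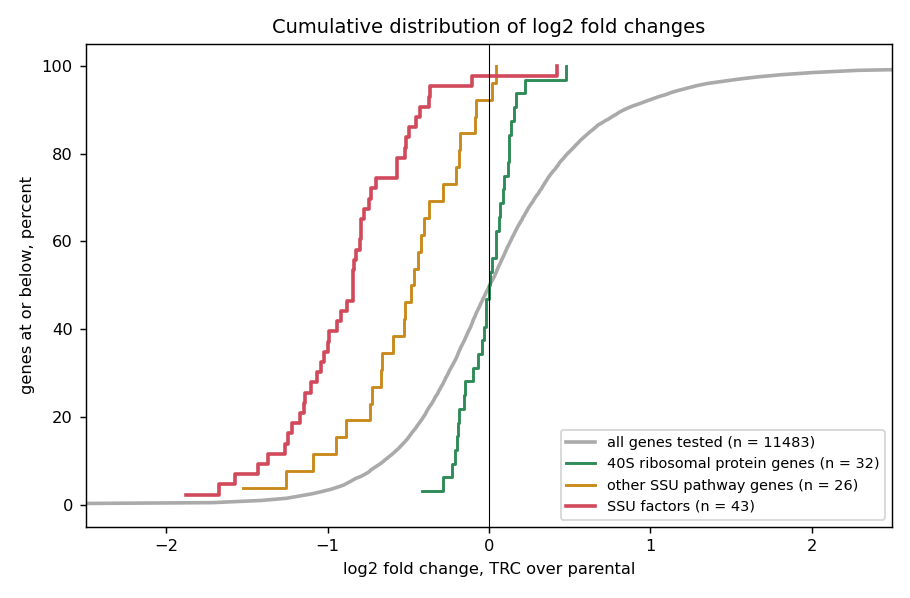
Cumulative percentage of genes at or below each log2 fold change, TRC over parental, for the 43 SSU factors, 26 other SSU pathway genes, 32 ribosomal protein genes of the 40S subunit and all 11483 genes tested. At 50% of genes the SSU factors are at −0.84, the other SSU genes at −0.47, and the ribosomal protein genes and all genes near 0.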

How the data were processed

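RNA-seq counts of 2 parental and 2 TRC samples of B16F1 were used. Libraries were stranded. The authors used Trimmomatic 0.35 for trimming, TopHat2 2.1.0 with Bowtie2 2.2.6 for alignment to GRCm38 and HTSeq for counting, tools that the submitters' processing notes also name. The authors deposited raw counts, listed by Ensembl gene identifier, and the mode and strand setting of the counting are not given in the sources used here. Rows that name no gene stayed out of library sizes. Unassigned alignments were 2.95% to 4.25% on no gene and 0.825% to 0.955% ambiguous.

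A gene with under 1 CPM in at least 3 of the 4 libraries was removed. Counts were scaled by TMM and compared with edgeR 4.0.16's exact test under R 4.3.3, with common and tagwise dispersions at edgeR's default, a prior count of 0.125 and Benjamini-Hochberg adjustment over all 11483 genes (FDR). The common coefficient of variation was 21.2%. Standard errors came from DESeq2 1.42.0. A first fit shrank tagwise dispersions to the common value. The default was adopted after that result was seen, and the first setting is kept as an alternative. The members and lists were chosen with earlier results of these data known. Named in full are the 2 genes of each role with the smallest FDR, the 1 with the largest, and every member not called lower. Of the other pathway lists, the 3 genes with the smallest FDR are named, and of the marker lists those called and examples with no count. *Utp3*, *Fcf1*, *Ddx47*, *Riok3*, *Nufip1*, *Ruvbl2* and *Utp20*'s neighbors were added after their values were seen. Symbols, positions and transcript lengths came from GENCODE M21, with APPRIS principal transcripts. The test was checked on simulated data. Alternatives were other tests, scalings, filters and dispersions, a replicate block and each library left out. Leaving out a library leaves 1 in its group, and that library is assumed to vary like the other group.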

Additional observations from a re-analysis of the deposited data

Results flagged for a closer look

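The share of alignments that were not unique, a measure the comparisons do not use, was 18.3% in TRC replicate 1 and 25.2% in TRC replicate 3, above both parental libraries at 15.2% and 17.1%. With 2 libraries per group, the groups do not overlap in it. Without TRC replicate 3, the median log2 fold change of the SSU factors was −0.893, beside −0.841 with all libraries. TRC replicate 1 is also above both parental libraries in this share, so that fit cannot separate the share from the group. The part of this share in the levels of the SSU factors was not tested.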

How the results depend on the processing

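The labels give both groups the numbers 1 and 3 and do not say that these mark a shared batch. Same-numbered libraries deviated from the means of their groups with a correlation of r = 0.0267 over 11483 genes. With 2 libraries per group, this correlation cannot tell whether samples with the same number shared a batch. With the replicate block, 22 SSU factors, 2 other SSU genes and 308 genes in all were called lower, and 477 genes higher. The quasi-likelihood test without the block gave 487 genes lower and 567 higher. With tagwise dispersions shrunk to the common value, the first fit made, 28 SSU factors and 5 other SSU genes were lower, where 5.67% of all genes were. The default reported above, with 32 and 9, was chosen after that result was seen.

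When libraries were left out one at a time, the SSU factors called lower ranged from 16 to 33 and those called higher from 0 to 1, the latter being *Utp20* without TRC replicate 3. The median log2 fold change ranged from −0.98 to −0.73, where −0.98 came without parental replicate 1 and moved by more than 0.138, its SD over the 4 library pairs. Genes in all ranged from 269 to 854 lower and 500 to 1078 higher, and other SSU genes from 2 to 7 lower. *Utp20* ranged from −1.42, called lower without TRC replicate 1, to 1.200, called higher without TRC replicate 3. These fits test with fewer libraries.

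Called lower in the exact test and in the 9 alternatives that keep all libraries were 22 members, and in all 13 alternatives 13, *Heatr1*, *Utp4*, *Wdr43*, *Wdr75*, *Nop56*, *Nop58*, *Imp4*, *Nop14*, *Wdr46*, *Nat10*, *Tsr1*, *Bysl* and *Rrp12*. The log2 fold change was below 0 in every setting for 41 members, all but *Imp3* and *Utp20*. With 2 libraries per group, differences the size of those of *Riok1* or *Ddx49* did not pass the test.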

Other observations

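The box C/D snoRNP also needs assembly factors, of which 7 were tested. *Znhit6* and *Ruvbl1*, the latter an ATPase of the R2TP complex, were called lower by edgeR's exact test, with log2 fold changes of −0.95 (FDR 0.032) and −0.68 (FDR 0.0392). *Rpap3*, with the next smallest FDR, had −0.33 (FDR 0.352), *Nufip1* and *Ruvbl2* had 0.053 and −0.13, and none of these 3 was called, and the median over the 7 was −0.33. *Utp20* lies on chromosome 10 from 88746607 to 88826804 in GRCm38, and *Arl1*, which lies 2.5 kb from it, had 106 and 112 CPM in parental and 111 and 121 CPM in TRC libraries, without the difference between TRC libraries seen in *Utp20*.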
